A study of Mus musculus with 33 samples.

Results

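Genes for structural proteins and enzymes of neurons and glia were followed through every list of a ChIP-seq series on Uhrf1. They were Nes, Tubb3, Nefl, Gfap, Ncam1, Syp, Snap25, Syt1, Gad1 and Th, 10 of 22367 protein-coding genes, chosen by name and not by a threshold on any measured value. A gene had H3K4me3 when a deposited domain lay within 2 kb of its start, and H3K27me3 or H3K9me3 when a domain lay within 5 kb. It had Oct4, Sox2 or Nanog when a summit lay within 20 kb of the gene body, and Uhrf1 when a 10 kb enriched window overlapped the gene body. The series held 33 samples, of which 25 came with a list of regions and 8 were inputs. The WT samples were E14 mESC, an undifferentiated mouse embryonic stem cell line, and the Uhrf1 KO samples were mESC without Uhrf1. Embryoid bodies (EBs), aggregates in which such cells differentiate into many cell types at the same time, were made from both and sampled at weeks 1, 2 and 3. H3K4me3 and H3K27me3 were mapped at all 4 stages, H3K9me3, Oct4, Sox2 and Nanog in mESC of both genotypes, and Uhrf1 in WT mESC. The mESC were grown with leukemia inhibitory factor on gelatin or on a layer of feeder fibroblasts, and 1 Uhrf1 KO line stood for the genotype.

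Each group was 1 library, so no difference between groups could be set against replicate error and no test was run. A mark is called lost where WT had it and Uhrf1 KO did not, and gained for the reverse. Counts of the 10 genes by mark and class are given beside the share of all 22367 genes with the same state. Marks that share a start may sit in the same cells or in different cells, and these cannot be told apart, above all in EBs. The labels were checked at the genes of the pluripotency factors and of Uhrf1. Sox2 and Nanog had H3K4me3 in mESC of both genotypes, as had Pou5f1, the gene of Oct4. Pou5f1 and Sox2 also had H3K27me3 in WT mESC and not in Uhrf1 KO mESC, and Nanog had it in neither. The H3K27me3 list of WT mESC covered 960 Mb and that of Uhrf1 KO mESC 84.1 Mb, so the WT mark was called over far more of the genome. The start of Uhrf1 had H3K4me3 without H3K27me3 in all 8 pairs of lists, so the lists do not show the knockout.

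H3K4me3 marks the starts of genes that are transcribed or can be, and H3K27me3 is laid down by Polycomb complexes at genes that are held silent. In stem cells many developmental genes carry both and are called bivalent, a state that is usually resolved to 1 of the marks as cells take on a fate. Uhrf1 binds methylated H3K9 and newly copied DNA and brings in the enzyme that maintains DNA methylation. Proteins of the neuronal skeleton, the synapse and transmitter synthesis are hallmarks of late neural cells and are hardly made in stem cells. Here a start with H3K4me3 alone is called active, with both marks bivalent, with H3K27me3 alone repressive, and with neither unmarked. These names describe overlap with domains and not transcription, which was not measured in these files.

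The starts of the 10 genes differed in CpG content, a property of the sequence that the choice of genes did not use. Over 500 bp either side of the start, the ratio of observed to expected CpG was 0.805 at Nefl, 0.760 at Ncam1, 0.752 at Nes and 0.601 at Tubb3. It was 0.573 at Syp, 0.549 at Snap25, 0.483 at Syt1, 0.249 at Gad1, 0.235 at Gfap and 0.212 at Th. The median over the 22364 genes with a sequence was 0.549, with quartiles of 0.227 and 0.768. Gad1, Gfap and Th were the 3 of 10 near the lower quartile, and Th lay below it. The start used is the 5' end of the gene record, and for those 3 genes it lies upstream of the start that RefSeq gives.

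**Figure D1:**
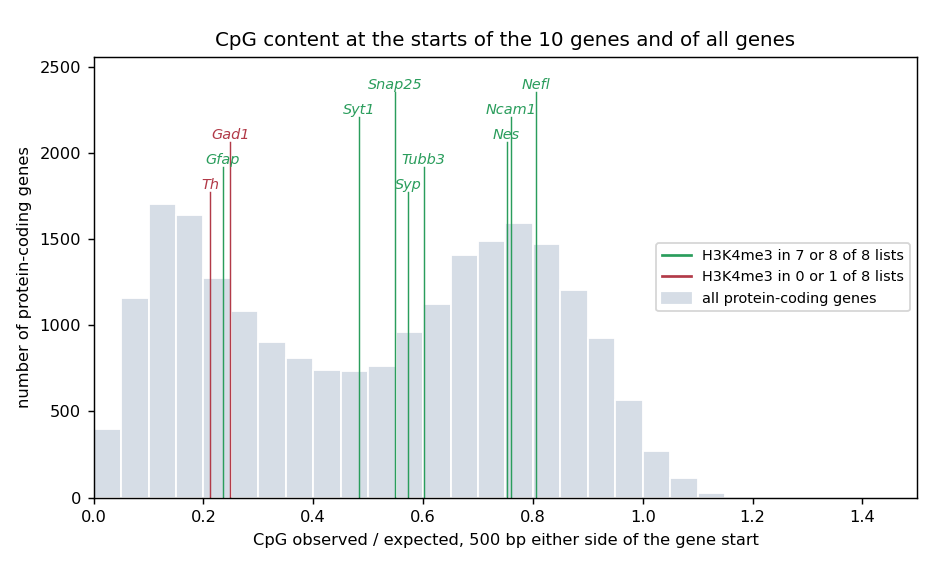
Number of protein-coding genes by CpG observed over expected in 500 bp either side of the gene start (bars), with the 10 genes as lines coloured by the number of H3K4me3 lists with a domain at the start. Th (0.212) and Gad1 (0.249), with H3K4me3 in 0 and 1 of 8 lists, sit in the CpG-poor peak, as does Gfap (0.235) with 7 of 8.

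RefSeq promoters, from 250 bases before to 50 after the start, were given for 7 of the 10 genes and were placed in mm9 by an exact match. The RefSeq start of Gad1 lay 9057 bp downstream of the start of its record, that of Gfap 3712 bp and that of Th 31133 bp. Those of Nes, Tubb3 and Syp lay 15, 129 and 109 bp downstream, and Syt1 had starts at 7 and 1871 bp. Around the RefSeq start the CpG ratio of Gad1 was 0.710, at percentile 67.0 of all genes, that of Gfap was 0.422 and that of Th 0.270. The promoters of Gad1, Th and Tubb3 are printed because they span the range of states described next: H3K4me3 in 7 of 8 lists at Gad1 when judged from the RefSeq start, in no list at Th, and in 7 of 8 at Tubb3. Capitals mark each CpG (RefSeq sequences of GRCm38.p6, read 5' to 3' along the gene).
Gad1, chr2:70399936-70400235 in mm9, plus strand, 21 CpG: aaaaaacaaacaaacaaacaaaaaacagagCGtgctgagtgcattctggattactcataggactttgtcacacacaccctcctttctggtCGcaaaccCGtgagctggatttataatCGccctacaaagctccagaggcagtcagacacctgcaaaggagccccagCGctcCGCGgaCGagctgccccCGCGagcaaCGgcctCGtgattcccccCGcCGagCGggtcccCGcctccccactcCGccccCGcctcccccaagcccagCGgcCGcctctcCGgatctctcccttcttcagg
Th, chr7:150085851-150086150, minus strand, 15 CpG: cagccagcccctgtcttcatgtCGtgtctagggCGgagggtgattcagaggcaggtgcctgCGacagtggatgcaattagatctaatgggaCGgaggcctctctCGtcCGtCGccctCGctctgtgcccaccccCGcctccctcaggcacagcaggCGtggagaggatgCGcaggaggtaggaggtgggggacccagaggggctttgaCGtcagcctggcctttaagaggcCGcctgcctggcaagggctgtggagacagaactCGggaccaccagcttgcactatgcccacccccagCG
Tubb3, chr8:125935203-125935502, plus strand, 26 CpG: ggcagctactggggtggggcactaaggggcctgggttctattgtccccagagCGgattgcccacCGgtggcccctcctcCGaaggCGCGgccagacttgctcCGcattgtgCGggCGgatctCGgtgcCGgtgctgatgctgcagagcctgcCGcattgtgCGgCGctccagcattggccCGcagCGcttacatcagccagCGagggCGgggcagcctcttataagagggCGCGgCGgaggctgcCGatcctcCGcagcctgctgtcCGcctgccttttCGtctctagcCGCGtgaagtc

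In WT mESC 7 of the 10 genes were bivalent, beside 18.3% of all genes. These were Nes, Nefl, Gfap, Ncam1, Snap25, Syt1 and Gad1. Tubb3 and Syp were active and Th was repressive, and none was unmarked. H3K4me3 was at 9 of 10 starts (63.2% of all genes) and H3K27me3 at 8 of 10 (34.9%). Among the 53 other neural structural genes that were looked up, 36 had H3K4me3 and 23 had H3K27me3 in the same lists.

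**Figure D2:**
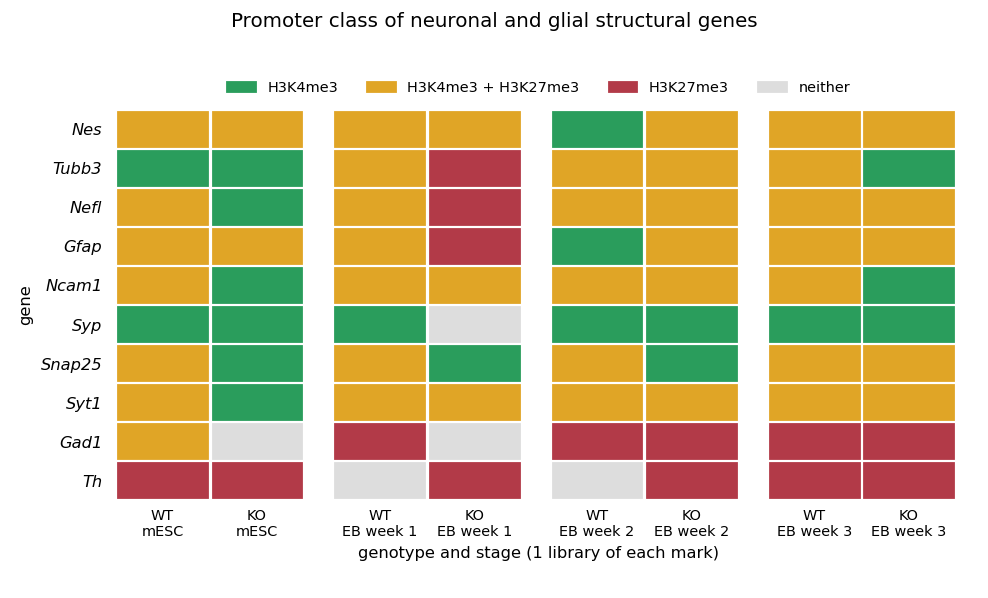
Promoter class of each gene (rows) in WT and Uhrf1 KO at each stage (columns), set by H3K4me3 within 2 kb and H3K27me3 within 5 kb of the gene start. Genes that differ in class between WT and Uhrf1 KO number 5 in mESC and 7, 4 and 2 at weeks 1, 2 and 3.

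In Uhrf1 KO mESC H3K27me3 was at 3 of 10 starts, those of Nes, Gfap and Th, beside 7.57% of all genes. It was absent from Nefl, Ncam1, Snap25, Syt1 and Gad1, 5 of the 8 genes that had it in WT, while 84.5% of all genes with the mark in WT lacked it in Uhrf1 KO. Over all genes this share was lower where the WT mean count was higher, from 97.6% to 61.6% between the lowest and the highest of 4 groups of about equal size. Of the 5 genes in the highest group, Nes, Gfap, Snap25, Gad1 and Th, 2 lost the mark, and the part of the WT count in the result was not tested. The Uhrf1 KO list holds 722 domains and the WT list 8161. When the WT list was shortened to its 722 highest scores, 4 of 10 genes were left in WT, beside 8.63% of all genes. Those 4 were Snap25, Syt1, Gad1 and Th, of which Th alone also had the mark in Uhrf1 KO. Their WT domains were the longest at these genes, 720, 325.8, 264.6 and 432 kb, with scores of 351, 141, 139 and 219. Those of Nes, Nefl, Gfap and Ncam1 were 12.6 to 156.6 kb long with scores of 6.64 to 76.5. The setting thus kept the longer domains.

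The 3 domains that were present in Uhrf1 KO mESC had few reads, as had that list as a whole. Its median mean count was 0.914 and its lowest 0, beside a median of 4.93 in the WT list. The mean read count per bin was 8.85 in WT and 0.688 in Uhrf1 KO at Nes, the intermediate filament protein of neural progenitors. It was 8.22 and 0.307 at Gfap, the filament of astrocytes. At Th, tyrosine hydroxylase, which makes the precursor of dopamine, it was 10.5 and 2.61. The lowest mean count of any domain in the WT list was 3.04, and 0.738% of all genes had a Uhrf1 KO domain that reached it. The Uhrf1 KO calls of this mark in mESC, present or absent, thus rest on a list of low counts. Bins were 1800 bp in WT and 1500 bp in Uhrf1 KO, and whether the counts were scaled to depth is not given in the sources used here, so the counts of the 2 lists are not on 1 scale. Within their own lists the WT domains ranked at percentiles 92.3, 89.8 and 95.9 and the Uhrf1 KO domains at 41.8, 22.7 and 85.9.

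In WT mESC the H3K27me3 domains at these genes ran from 12.6 kb at Gfap to 720 kb at Snap25. At Snap25, a membrane protein of the vesicle fusion machinery, the WT mESC domain was 720 kb long and held the starts of 6 coding genes. At Th it was 432 kb long in WT and 994.5 kb in Uhrf1 KO, with 5 and 27 coding starts. At Gfap the domains of 12.6 kb and 15 kb began 0.226 kb downstream of the start of the record and covered the RefSeq start. At Snap25 the WT domain of week 1 was 7 kb long and ended 0.689 kb before the start. Tubb3, which had no H3K27me3 in WT mESC, had a domain of 7 kb in WT at week 1.

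H3K4me3 stayed at 8 of 10 starts in Uhrf1 KO mESC, beside 57.0% of all genes. Gad1, which makes the inhibitory transmitter GABA, was the 1 of 9 that lost it, and 12% of all genes marked in WT did. In WT a domain of 20.8 kb ran from -2.63 kb to +18.2 kb at Gad1. In Uhrf1 KO the nearest domain, 19.5 kb long, began 3.87 kb downstream of the start of the record and covered the RefSeq start. By the RefSeq start Gad1 therefore had H3K4me3 in both genotypes and moved from bivalent to active, as 4 other genes did. Those 4 were Nefl, Ncam1, Snap25 and Syt1, so that 5 of 10 genes differed in class, beside 36.4% of all genes.

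H3K4me3 domains differed in length between the genotypes at most genes that had them in both. At Tubb3, the neuron-specific tubulin, the domain was 62.4 kb long in WT mESC and 9.1 kb in Uhrf1 KO. At Nes it was 122.2 kb and 39 kb, at Gfap 33.8 kb and 9.1 kb, at Ncam1 6.5 kb and 2.6 kb, and at Syt1 7.8 kb and 6.5 kb. The order was the reverse at Syp, a vesicle membrane protein, with 3.9 kb in WT and 42.9 kb in Uhrf1 KO, and at Nefl, the light neurofilament chain, with 5.2 kb and 14.3 kb. Snap25 had 7.8 kb in both. At Nes, Tubb3 and Gfap the WT domains held 7, 3 and 3 coding starts and the Uhrf1 KO domains 1 each. At Syp the WT domain held 1 and the Uhrf1 KO domain 3. These lengths therefore take in neighbouring genes. The WT domain at Gfap and the Uhrf1 KO domain at Ncam1 did not cover the start. When coverage of the start was required, Gfap had H3K4me3 in Uhrf1 KO mESC alone and Ncam1 in WT mESC alone. The median log2 ratio over these 8 genes was -0.79, and over all 12431 genes marked in both it was 0.00, with 49.4% of them shorter in Uhrf1 KO.

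The domains ranked lower within their list in Uhrf1 KO at 6 of the 8 genes. Mean counts were taken over whole domains, which often covered different stretches in WT and Uhrf1 KO. At Gfap the WT domain ran from +1.13 kb to +34.9 kb and the Uhrf1 KO domain from -1.47 kb to +7.62 kb. At Syp they were 3.9 kb and 42.9 kb long. A difference in rank thus need not be a change at the start itself. The percentile of the mean count went from 66.8 to 0.565 at Gfap, from 77.9 to 13.8 at Syp, from 47.9 to 3.75 at Tubb3 and from 66.6 to 24.9 at Syt1. At Nes it went from 25.9 to 14.7 and at Nefl from 55.4 to 49.4, and it was higher in Uhrf1 KO at Ncam1, an adhesion protein of neurons (30.6 and 52.0), and at Snap25 (79.5 and 86.1). The median difference was -26.4 points over the 8 genes and -7.05 over all 12431 genes, of which 65.3% ranked lower in Uhrf1 KO. Gfap, Tubb3 and Syp, 3 of the 4 with the largest differences, had no H3K4me3 in the Uhrf1 KO list of week 1. Nefl, with a difference of only -6.04 points, had none there either.

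At week 1 the H3K4me3 lists of the genotypes differed most at these genes. H3K4me3 was at 8 of 10 starts in WT (62.1% of all genes) and at 4 of 10 in Uhrf1 KO (57.0%). With lists of equal number it was also at 8 and 4, but among domains above the median score it was at 4 in WT and 3 in Uhrf1 KO. By mean count the WT domains kept, at Nes, Tubb3, Nefl and Ncam1, ranked at percentiles 30.9, 0.0857, 19.1 and 72.6. Those dropped, at Gfap, Syp, Snap25 and Syt1, ranked at 0.675, 44.2, 93.3 and 33.4, so the score did not sort domains by mean count. The domains kept were 4.4 to 12.4 kb long and those dropped 0.4 to 4.4 kb. The 4 genes that had lost it were Tubb3, Nefl, Gfap and Syp, and the 4 that kept it were Nes, Ncam1, Snap25 and Syt1. Of all genes marked in WT, 10% had lost it. The nearest Uhrf1 KO domain lay at +31.4 kb at Tubb3, -31.9 kb at Nefl, +17.6 kb at Gfap and +9.8 kb at Syp. None of those 4 calls turned on the distance of 2 kb, since all were also absent at 5 kb. At Gad1 the nearest domain, 1.75 kb long, began at +14.5 kb, so that, by its RefSeq start, Gad1 joined the genes with H3K4me3 in WT and without it in Uhrf1 KO at week 1. That library was the 1 of the 8 in which the RefSeq start of Gad1 had no H3K4me3.

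Of the 4 genes that lost H3K4me3 at week 1, 3 had the weakest domains in WT. The mean count of the WT domain was 4.52 at Tubb3, 5.08 at Gfap, 8.13 at Nefl and 12 at Syp, where the domain was a single bin of 0.4 kb. At the genes that kept it the count was 9.82 at Nes, 10.2 at Syt1, 17.3 at Ncam1 and 24.9 at Snap25. Only Syp went against a division by count. Over all genes the share that lost H3K4me3 was lower where the WT mean count was higher, from 32.3% of genes at 4.45 to 11.5 reads per bin to 5.36% at 11.5 to 15.6 and then to 1.64% and 0.807%, where the genes were parted by count into 4 groups of about equal size. Its part in the result was not tested. Of the 5 genes in the lowest group 3 lost the mark, and of the 3 in the higher groups Syp did.

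**Figure D3:**
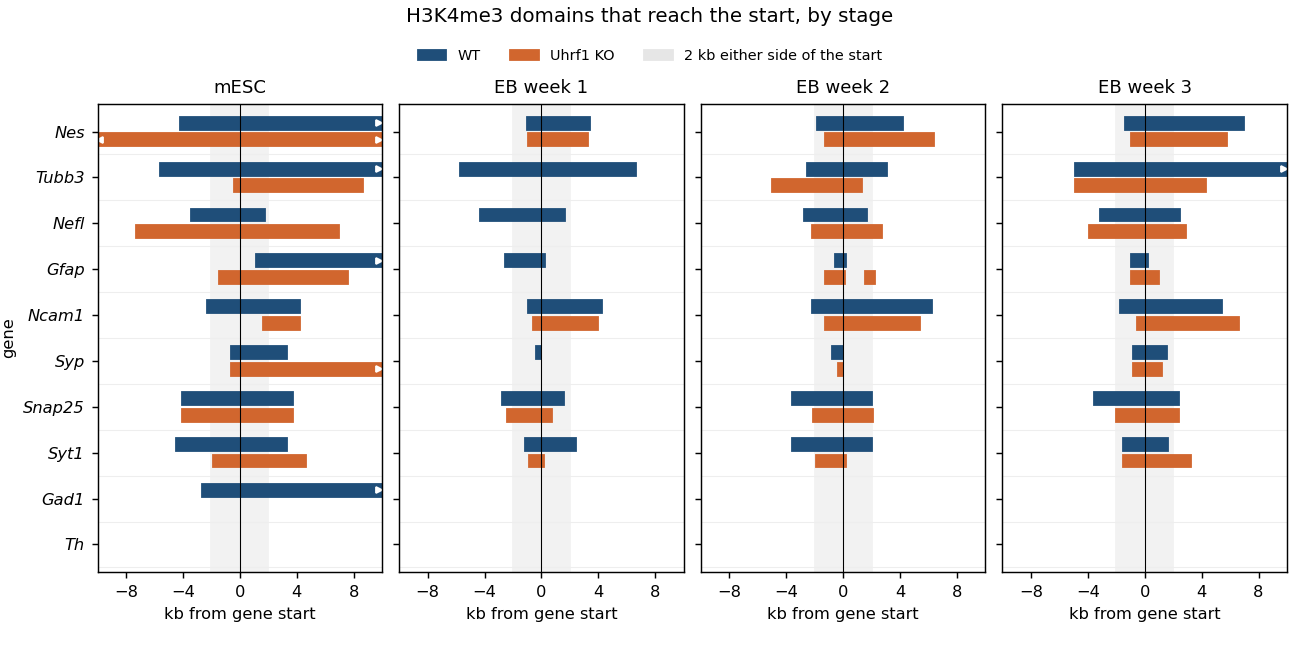
H3K4me3 domains within 2 kb of each gene start (bars, kb from the start, cropped at 10 kb with arrowheads) in WT and Uhrf1 KO at each stage. At week 1 Tubb3, Nefl, Gfap and Syp have a domain in WT and none in Uhrf1 KO, and at weeks 2 and 3 the same 8 genes are marked in both.

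H3K27me3 did not go with H3K4me3 at week 1. It was at 8 of 10 starts in WT (20.5% of all genes) and at 7 of 10 in Uhrf1 KO (21.1%). Snap25 and Gad1 lacked it in Uhrf1 KO, 2 of 8 beside 27.7% of all genes with the mark in WT, and Th gained it, 1 of 2 beside 7.91%. At Gad1 the Uhrf1 KO domain began at +6.87 kb and covered the RefSeq start, so by that start Snap25 alone lost the mark. Tubb3, Nefl and Gfap went from bivalent to repressive, with Uhrf1 KO domains of 37.8 kb, 34.2 kb and 25.2 kb over their starts. Syp went from active to unmarked, and Snap25 from bivalent to active. In all 7 of 10 genes differed in class, beside 18.1% of all genes. When any annotated transcript start was used, Th had H3K27me3 in WT as well. By that rule 5 of 10 genes differed in class, without Gad1 and Th, beside 18.6% of all genes. Bivalent starts numbered 7 in WT (15.2% of all genes) and 3 in Uhrf1 KO (10.7%).

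At week 2 H3K4me3 was at 8 of 10 starts in both genotypes, the same 8 genes, beside 65.7% of all genes in WT and 64.5% in Uhrf1 KO. At week 3 the same held, beside 66.2% and 65.8%. Over all genes 5.33% of those marked in WT at week 2 and 3.73% at week 3 lost it. Tubb3, Nefl, Gfap and Syp had domains of 6.3 kb, 4.9 kb, 1.4 kb and 0.35 kb over their starts in Uhrf1 KO at week 2. The log2 ratio of lengths had a median of -0.09 at week 2 and -0.13 at week 3 over the 8 genes, beside -0.23 and 0.00 over all genes. At Tubb3 the WT week 3 domain was 51.6 kb long and ended 46.7 kb downstream, whereas the Uhrf1 KO domain was 9.2 kb long.

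At week 2 H3K27me3 was at more of these starts in Uhrf1 KO than in WT: 6 of 10 starts had it in WT (29.8% of all genes) and 8 of 10 in Uhrf1 KO (24.1%). The direction turned when domains at or under the median score were dropped, with 5 in WT (22.9% of all genes) and 4 in Uhrf1 KO (17.5%). The Uhrf1 KO domains dropped, at Tubb3, Gfap, Ncam1 and Syt1, ranked at percentiles 97.2, 97.7, 90.8 and 92.6 by mean count. By length they ranked at 25.6, 9.86, 5.38 and 15.7. Those kept, at Nes, Nefl, Gad1 and Th, ranked at 90.4, 23.8, 70.2 and 44.2 by mean count and at 57.5, 92.8, 97.2 and 94.6 by length. This setting thus kept long domains and did not sort them by mean count. Nes, Gfap and Th gained it, 3 of the 4 genes without it in WT, beside 13.6% of all such genes. Snap25 lost it, 1 of 6, beside 51.2%. In WT the nearest domain at Nes began 18.2 kb downstream, and in Uhrf1 KO a domain of 77.4 kb ran from -3.40 kb to +74.0 kb. At Gfap the nearest WT domain ended at -37.6 kb and a Uhrf1 KO domain of 19.8 kb covered the gene. At Th the nearest WT domain ended at -10.2 kb, and a Uhrf1 KO domain of 369 kb covered the gene. Nes and Gfap thus went from active to bivalent, and 4 of 10 genes differed in class, beside 29.0% of all genes. Bivalent starts numbered 5 in WT (13.7%) and 6 in Uhrf1 KO (13.4%).

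At week 3 H3K27me3 was at 9 of 10 starts in WT (33.2% of all genes), every gene but Syp, and at 7 of 10 in Uhrf1 KO (19.5%). With lists of equal number the direction turned, with 6 in WT (21.3% of all genes) and 7 in Uhrf1 KO (19.5%). The WT domains dropped, at Tubb3, Gfap and Syt1, were 34.2, 18 and 36 kb long, and those kept 97.2 to 592.2 kb. This setting too kept long domains. Tubb3 and Ncam1 lost it, 2 of 9, beside 50.1% of all genes with the mark in WT. They went from bivalent to active and were the 2 genes of 10 that differed in class, beside 23% of all genes. At Tubb3 the nearest Uhrf1 KO domain, 21.6 kb long, began 5.28 kb downstream, just past the distance of 5 kb, so that call turned on the distance. At Ncam1 the nearest ended at -201 kb, where the WT domain had been 592.2 kb long. Bivalent starts numbered 7 in WT (19.6%) and 5 in Uhrf1 KO (11.3%).

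Within a genotype, 2 of 10 genes differed in class between mESC and week 3 in WT, beside 25.9% of all genes. These were Tubb3, from active to bivalent, and Gad1, from bivalent to repressive at the start of its record. In Uhrf1 KO 4 of 10 differed, beside 27%, and all 4 had H3K27me3 at week 3 and not in mESC: Nefl, Snap25, Syt1 and Gad1. In WT mESC and in WT week 3 EBs alike, 7 of the 10 starts were bivalent, and in Uhrf1 KO mESC 2 were (4.29% of all genes).

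By role, the filament and tubulin genes Nes, Tubb3, Nefl and Gfap had H3K4me3 in all 4 WT lists, and Nes alone of them also in all 4 Uhrf1 KO lists. The adhesion gene Ncam1 and the synaptic genes Snap25 and Syt1, the calcium sensor of vesicle release, had it in all 8 lists. Of these 3, Snap25 had H3K27me3 in 4 of 4 WT lists and 1 of 4 Uhrf1 KO lists, Ncam1 in 4 and 2, and Syt1 in 4 and 3. Syp stood apart from the other synaptic genes in having no H3K27me3 in any of 8 lists, with the nearest WT mESC domain ending at -300 kb. Of the transmitter enzymes, Gad1 had H3K4me3 in 1 of 8 lists at the start of its record and in 7 of 8 at its RefSeq start. Th had none in any list at either start, the nearest domain ending at -36.6 kb in the WT week 1 list, and had H3K27me3 in 2 of 4 WT lists and 4 of 4 Uhrf1 KO lists.

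Pairs of genes were compared by the number of the 16 H3K4me3 and H3K27me3 lists in which both had the same state. Nes and Gfap, Ncam1 and Syt1, and Nefl and Syt1 were alike in 15 of 16. Nes with Syt1, Nefl with Gfap, Nefl with Ncam1, Tubb3 with Nefl, Tubb3 with Ncam1 and Snap25 with Syt1 were alike in 14. The neural progenitor filament Nes and the astrocyte filament Gfap differed only in the Uhrf1 KO week 1 list of H3K4me3. The lists share libraries and domain calls, so these counts describe the pairs and no more.

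**Figure D4:**
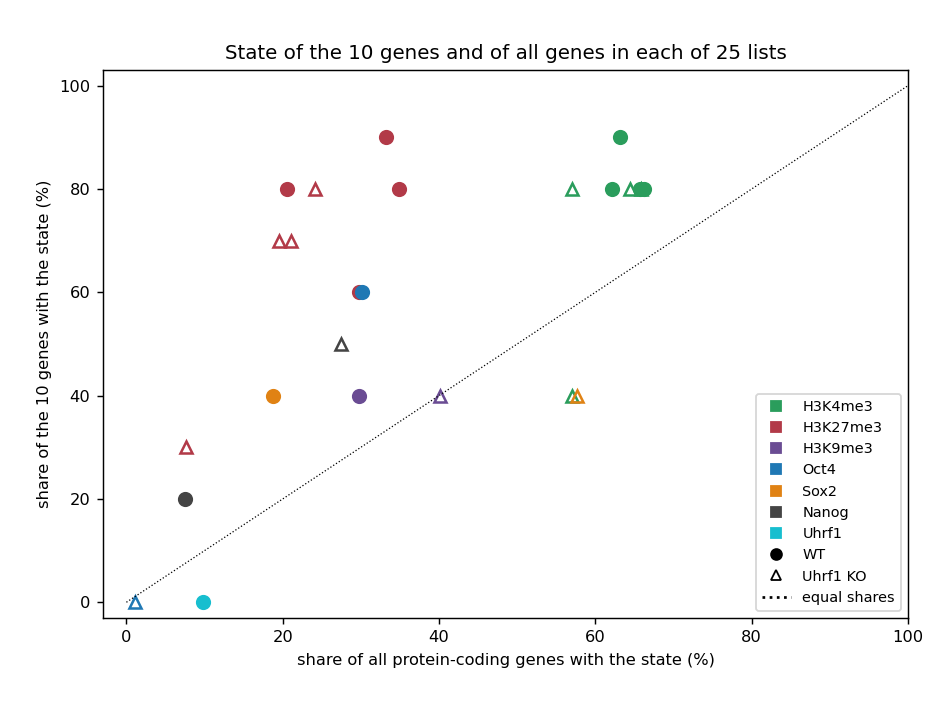
Share of the 10 genes (vertical axis, %) against the share of all 22367 protein-coding genes (horizontal axis, %) with the state in each of 25 lists, WT as filled circles and Uhrf1 KO as open triangles. All 8 H3K27me3 points lie above the line of equal shares, and among the H3K4me3 lists only Uhrf1 KO week 1 (40% against 57.0%) lies under it.

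H3K9me3, a mark of silent heterochromatin, was at 4 of 10 starts in mESC of each genotype, beside 29.7% of all genes in WT and 40.1% in Uhrf1 KO. In WT these were Tubb3, Gfap, Ncam1 and Snap25, and in Uhrf1 KO Nes, Nefl, Gfap and Syt1, so Gfap alone had it in both. Of the 4 genes with the mark in WT 3 lost it (25.1% of all such genes), and of the 6 without it 3 gained it (25.4%). The WT domains were 5.4 kb long at Gfap, 10.8 kb at Tubb3, 50.4 kb at Ncam1 and 90 kb at Snap25. Those in Uhrf1 KO were 156.6 kb at Nes, 180 kb at Nefl, 3281.4 kb at Syt1 and 26415 kb at Gfap, the last holding the starts of 470 coding genes. A domain of that length gives the state of a region of the chromosome and says little of Gfap. At 10 kb in place of 5 kb, 7 of 10 genes had H3K9me3 in WT (34.3% of all genes), with Nefl, Syt1 and Gad1 added. With lists of equal number 1 of 10 had it (20.2%).

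Uhrf1 windows overlapped none of the 10 genes in WT mESC, beside 9.84% of all genes, a share that corresponds to about 1 gene in 10. A window lay within 10 kb of Tubb3 and of none of the other 9, beside 14.4% of all genes within 10 kb of the body.

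Oct4, Sox2 and Nanog hold stem cells in the pluripotent state, and Sox2 is also a factor of neural progenitors. In WT mESC 6 of 10 genes had an Oct4 summit (30.1% of all genes), 4 a Sox2 summit (18.8%) and 2 a Nanog summit (7.51%). In Uhrf1 KO mESC none had Oct4 (1.1%), 4 had Sox2 (57.7%) and 5 had Nanog (27.4%). Long genes have more room for a summit, and Syt1 (513 kb) and Ncam1 (297 kb) are long. Within 20 kb of the gene start alone, the numbers in WT were 4, 4 and 1, beside 20.3%, 13.2% and 4.47% of all genes. In Uhrf1 KO they were 0, 4 and 3, beside 0.563%, 47.9% and 17.7%. The lists themselves changed in length, from 12898 Oct4 summits in WT to 576 in Uhrf1 KO, from 5190 to 20755 for Sox2 and from 2390 to 10632 for Nanog. The same 4 genes, Nes, Tubb3, Ncam1 and Gad1, had Sox2 in both genotypes, although the share of all genes with Sox2 was 57.7% in Uhrf1 KO.

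At Nes 1 intronic site had Oct4 and Sox2 in WT and Sox2 and Nanog in Uhrf1 KO. Summits of Oct4 and Sox2 lay at +3417 and +3423 bp in WT, with heights of 96 and 54 reads, and in Uhrf1 KO Sox2 had 114 reads at +3431 and Nanog 19 reads at +3457. A second Sox2 site lay over the start itself, at +28 in WT with 14 reads and at 0 in Uhrf1 KO with 24. Tubb3 was alike there, with Sox2 at +22 in WT (20 reads) and at +28 in Uhrf1 KO (24 reads), and had an Oct4 summit in WT at +1646 with 22 reads. Both start sites lie in an exon. Heights are read numbers that were not scaled between libraries, so they rank sites within a list and do not measure a change.

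Ncam1 had the most sites. In WT, Oct4 stood at -104 bp with 29 reads, at +2204 with 43, at +47333 with 51 and at +144816 with 27. The site 47 kb into the gene held all 3 factors in WT and Sox2 with 77 reads and Nanog with 31 in Uhrf1 KO. At the site 2.2 kb from the start, WT had Oct4, Sox2 with 13 reads and Nanog with 26, and Uhrf1 KO had Nanog alone with 33. At the start Sox2 was listed in Uhrf1 KO with 26 reads and Oct4 in WT. Syt1 had 3 intronic sites between +438 kb and +443 kb, with Oct4 at 43, 29 and 40 reads in WT and Nanog at 26, 14 and 21 in Uhrf1 KO. The first also had Nanog in WT, with 17 reads. At Gad1, WT had Sox2 at +6189 with 18 reads and Oct4 at +6596 with 29, and Uhrf1 KO had Sox2 at +6146 with 38 and Nanog at +6617 with 14. These sites lie between the start of the record and the RefSeq start and also in an intron of 1500002O10Rik. Syp had an Oct4 summit in WT with 36 reads at +31626, in an intron of Plp2, and Snap25 had Nanog in Uhrf1 KO at +28139 and +77289 with 11 and 12 reads. Nefl, Gfap and Th had no summit in any list.

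Of the 11 WT Oct4 summits at these genes none had an Uhrf1 KO Oct4 summit within 100 bp, beside 1.89% of all WT Oct4 summits. A Uhrf1 KO Sox2 summit lay within 100 bp of 4 of the 11 (46.0% of all) and a Uhrf1 KO Nanog summit of 7 of 11 (32.4%). In WT, Sox2 was that near to 3 of 11 (24.2%) and Nanog to 4 of 11 (12.9%). Of the 6 WT Sox2 summits 5 had a Uhrf1 KO Sox2 summit (64.6%), and of the 4 WT Nanog summits 3 had a Uhrf1 KO Nanog summit (81.5%). Some of the 11 lie in the same gene, 4 in Ncam1 and 3 in Syt1, so they are not independent.

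**Figure D5:**
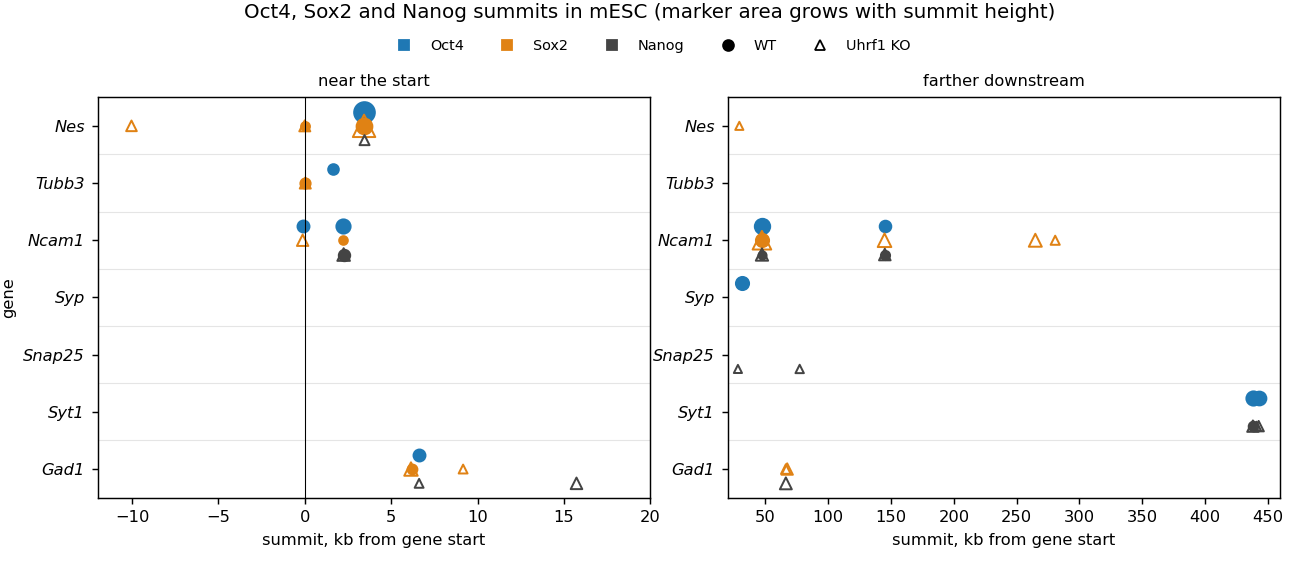
Summits of Oct4, Sox2 and Nanog in WT (filled circles) and Uhrf1 KO (open triangles) mESC, in kb from the start of each gene that has any, with marker area growing with the height in reads. At Nes, Ncam1, Syt1 and Gad1 sites with Oct4 in WT have Sox2 or Nanog in Uhrf1 KO, and no Uhrf1 KO Oct4 summit is plotted because none was listed. Some of these sites, in Nes, Ncam1 and Syt1, have Sox2 or Nanog in WT as well, and the Oct4 sites of Tubb3 and Syp have neither in Uhrf1 KO.

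The sequences of the 5 sites with 3 or more summits are printed, with that of the Tubb3 start, where Sox2 was listed in both genotypes, and that near Syp, which was chosen for its octamer after its values were seen. Each runs 50 bases either side of the highest summit, along the strand of the gene and in mm9. Capitals mark matches to the octamer (ATGCAAAT) or to the Sox motif (ACAATGG or ACAAAGG) on either strand. Of the 5 sites with 3 or more summits 2 hold a match, both in Ncam1.
Nes at +3.4 kb, intron, chr3:87778381-87778481, plus strand: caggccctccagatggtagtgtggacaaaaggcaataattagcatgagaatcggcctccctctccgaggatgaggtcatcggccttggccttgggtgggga
Tubb3 at the start, exon, chr8:125935302-125935402, plus strand: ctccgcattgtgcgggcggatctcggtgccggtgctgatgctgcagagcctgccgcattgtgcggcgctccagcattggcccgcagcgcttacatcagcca
Ncam1 at +2.2 kb, intron, chr9:49604773-49604873, minus strand: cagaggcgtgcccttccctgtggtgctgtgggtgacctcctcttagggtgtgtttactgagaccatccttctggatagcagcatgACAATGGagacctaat
Ncam1 at +47 kb, intron, chr9:49559729-49559829, minus strand: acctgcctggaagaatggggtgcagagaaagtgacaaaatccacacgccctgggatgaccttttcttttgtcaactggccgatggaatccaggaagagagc
Ncam1 at +145 kb, intron, chr9:49462149-49462249, minus strand: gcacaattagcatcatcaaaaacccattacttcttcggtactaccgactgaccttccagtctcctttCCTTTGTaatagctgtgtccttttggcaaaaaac
Syt1 at +438 kb, intron, chr10:108009951-108010051, minus strand: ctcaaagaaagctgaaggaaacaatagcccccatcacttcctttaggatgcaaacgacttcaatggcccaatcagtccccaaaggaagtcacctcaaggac
Syp at +31.6 kb, intron of Plp2, chrX:7247173-7247273, plus strand: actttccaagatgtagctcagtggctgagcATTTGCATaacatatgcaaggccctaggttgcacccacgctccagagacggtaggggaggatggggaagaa
The octamer lay under 1 of the 11 WT Oct4 summits, that near Syp, beside 8.82% of the WT Oct4 summits on assembled chromosomes. The Sox motif lay under 0 of 6 WT Sox2 summits (15.0% of all) and 4 of 14 Uhrf1 KO Sox2 summits (14.4%), of which 3 were in Ncam1 and 1 was downstream of Gad1. A match is a string of letters and is not a binding site by itself, and a missing match says only that these letters are not in the 101 bases.

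The study's own primers for ChIP-qPCR at Nes and Tubb3 were placed in mm9 to show which part of each gene they read. The Nes pair spans chr3:87774533-87774685, from -467 to -315 bp, in intergenic sequence upstream of the start. Its forward primer is GCAGACTTCCCTCAGTACCAG and its reverse primer ATGGCTTGGTGTTGGAAACCT. The product lay in an H3K4me3 domain in 8 of 8 lists and in an H3K27me3 domain in 6 of 8, although H3K27me3 lay within 5 kb of the start in 7. The Tubb3 pair spans chr8:125936065-125936232, from +741 to +908 bp, in an intron, with CTTTGTTGGAGGAGTTCGGC and TGCGGGCTAACAATAGAGGG. That product lay in H3K4me3 in 7 of 8 lists, all but Uhrf1 KO week 1, and in H3K27me3 in 5 of 8. Another gene record, Gm20388, overlaps Tubb3 there, and the signal of the 2 records cannot be told apart.

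The other neural structural genes were 53 of the cytoskeleton, adhesion, synapse, transmitters and glia. In mESC 18 of the 23 with H3K27me3 in WT lost it in Uhrf1 KO, beside 84.5% of all genes, and 1 gained it (3.34%). Here shares beside a loss are of all genes with the mark in WT, and those beside a gain of all genes without it. Of the 36 with H3K4me3 in WT mESC 11 lost it in Uhrf1 KO, beside 12% of all genes, and 3 gained it (3.75%). At week 1 8 of 31 lost H3K4me3, beside 10% of all genes, and 2 gained it (3.10%). At week 2 2 of 33 lost it (5.33%) and 4 gained it (6.61%), and at week 3 7 of 42 lost it (3.73%) and 1 gained it (6.05%). Shares of all genes were not counted for each change of class. Over all genes the bivalent share was 18.3% in WT mESC and 4.29% in Uhrf1 KO mESC, and 15.2% and 10.7% at week 1. The changes below are thus not particular to these genes. Of these genes 6 went from bivalent to active in mESC, Chl1 and Nrcam among them, and 5 from bivalent to unmarked, Cntn1 and Ncam2 among them. Gad2 went from active to bivalent. Cntn2 and Map2 were among 4 that went from active to unmarked, Fabp7 and Nefm among 3 from repressive to active, Cplx2 and Mag among 4 from repressive to unmarked, and Prph and Slc18a2 were the 2 from bivalent to repressive. At week 1 the bivalent genes of this list that became repressive numbered 7, Chl1 and Cplx1 among them, and 7 stayed bivalent.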

How the data were processed

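ChIP-seq of histone marks, pluripotency factors and Uhrf1 in WT and Uhrf1 KO mouse mESC and EBs had been mapped by the authors to mm9 with Bowtie2 2.1.0. Histone domains had been called by the authors with RSEG against input, 1 list per library. Each deposited domain has a signal, which is its average number of reads per bin, and a score. MACS had been used for the factors, where the deposited signal of a summit is its height in reads. The Uhrf1 windows of 10 kb carry no value. Bins were 350 to 1800 bp long and differed between lists. Read totals and the 8 input samples were not used here, so the depth of each library is unknown here and no interval is given.

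Gene starts were taken from GENCODE vM1 on NCBIM37, the same build as mm9. No region reached past a chromosome end. Overlaps of at least 1 bp were counted with Python 3.11 and numpy 2.4.6, checked on simulated regions, and drawn with matplotlib 3.10.9. Percentiles give the share of domains of the same list with a lower value. RefSeq promoters and primers were placed by exact match on the plus or minus strand. Summits on unplaced contigs were left out of the motif shares. Of 54 other neural genes 53 matched the annotation, 2 by an older symbol, and those named were the first 2 in alphabetical order of each change of class in mESC, with the same order used at week 1. Samples were grouped as GEO's labels give them. The members and lists were chosen with earlier results of these data known. Alternatives were other distances, coverage of the start or of at least 50% of the window, a minimum score or height, lists of equal number and other starts. Lists of equal number kept the domains with the highest scores. At these genes the score largely followed the length of a domain and not its mean count. Settings by score therefore kept long domains and are not a check on strength. The RefSeq start and the minimum count for H3K27me3 were added after the data were seen.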

Additional observations from a re-analysis of the deposited data

Results flagged for a closer look

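By the distances used in the report, H3K27me3 at the 10 genes differed between the genotypes in opposite directions at different stages. Subtracting the number of marked genes in WT from that in Uhrf1 KO gave -5 for mESC. The same subtraction gave -1 for EBs of week 1, 2 for those of week 2 and -2 for those of week 3. At week 2 Nes, Gfap and Th had it in Uhrf1 KO and lacked it in WT. These directions depended on the setting. Above the median score 5 genes had it in WT (22.9% of all genes) and 4 in Uhrf1 KO (17.5%) at week 2. With lists of equal number 6 (21.3%) and 7 (19.5%) had it at week 3. Both settings kept domains by score, which largely followed length. The difference between stages was not tested, since each value compares 1 library with 1 library, and shares of all genes at the same stages were 34.9% and 7.57%, 20.5% and 21.1%, 29.8% and 24.1%, and 33.2% and 19.5%.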

How the results depend on the processing

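Counts of genes were recomputed for 29 results under the alternatives that applied, 198 values in all. Of these 174 stayed within 1.5 times the count in the report and 24 did not. With 10 genes a count of 7 or more could not rise past that bound, and the bound does not show which genes are counted. In mESC 5 genes differed in class, and 6 with lists of equal number, without Nefl and Ncam1 and with Nes, Gfap and Syp added. The number that stayed is thus no measure of stability. Nearer distances, any annotated transcript start, the RefSeq start and a 5 kb limit around the gene body moved none past 1.5 times. Nefl, Ncam1 and Snap25 had no RefSeq promoter and kept the start of their record in the RefSeq setting. Keeping domains above the median score gave H3K4me3 at 4 genes in WT and 3 in Uhrf1 KO mESC, 4 in WT and 3 in Uhrf1 KO at week 1, 5 in Uhrf1 KO week 2 and 5 in WT week 3. The same setting gave H3K27me3 at 4 in Uhrf1 KO at week 1 (15.3%). At week 2 it gave 4 in Uhrf1 KO (17.5%) and 5 in WT (22.9%), which turned the direction. H3K9me3 was at 2 in WT (24.3%), and classes differed at 8 genes in mESC (34.6%) and 5 at week 3 (20.1%). With lists of equal number WT mESC had H3K27me3 at 4 genes (8.63%) and H3K9me3 at 1 (20.2%). Week 3 had H3K27me3 at 6 in WT (21.3%) and 7 in Uhrf1 KO (19.5%), which also turned the direction. At 10 kb WT H3K9me3 was at 7 (34.3%). WT week 1 H3K27me3 covered the start of 5 genes (13.9%) and 50% of the window of 5 (13.5%). In a further setting, with no scaling for bin length or depth, Uhrf1 KO mESC domains of H3K27me3 had to reach the smallest WT mean count. Then 0 genes had one (0.738%) and 8 classes differed (38.3%). Summits above the median height were at 3 genes for Oct4, 2 for Sox2 and 1 for Nanog in WT, and within 20 kb of the start Nanog was at 1 in WT and 3 in Uhrf1 KO. A Uhrf1 window lay within 10 kb of the body of 1 gene (14.4%) and of the start of 1 (8.39%). No paired analysis was possible because each group is 1 library. The cause of these movements was not tested.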
